A study of Homo sapiens with 4 samples.

Results

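Cytochrome P450 genes were followed in HepG2 cells depleted of the histone demethylase LSD1. The members were the probe sets whose platform annotation named a single gene with a symbol made of CYP and a number. CYP51A1, antisense transcripts and pseudogenes were left out, which removed 9 of 102 such probe sets. This gave 93 probe sets of 54675 on the array, reading 48 genes of 19775. Of these genes, 30 belong to families 1 to 4, 17 act on sterols, steroid hormones or vitamins, and CYP20A1 has no assigned substrate. The read-through locus CYP3A7-CYP3A51P, annotated as protein-coding, was kept in family 3.

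HepG2 is an established human hepatoma line, and all cells grew in medium with 25 mM glucose and 10% serum. Knockdown cells were transfected with siRNA against LSD1 at about 50% confluence and harvested after 4 days, with siRNA-2 on 1 array and siRNA-1 on another. Control cells received an siRNA against GL3, a firefly luciferase sequence, on 2 arrays. The labels do not say whether the control arrays came from separate cultures, so the spread between them may be technical. The spread between the knockdown arrays includes the difference between the siRNAs, with 753 genes over 2-fold apart, against 0 between the controls.

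Cytochromes P450 are haem enzymes that insert an oxygen atom into fat-soluble substrates. Enzymes of families 1 to 3 clear drugs, toxins and carcinogens in the liver, and those of family 4 mostly hydroxylate the end of fatty acid chains. Others build bile acids and steroid hormones or switch vitamin D and retinoic acid off and on. Hepatocytes are the main site of drug-clearing P450s in the body, and cultured hepatoma lines are known to carry low levels of many of them.

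All values are deposited RMA values, taken as log2, and the median of the 4 arrays is 0 in each probe set, so they had been centred. Levels between genes therefore cannot be compared, and the middle pair of arrays of a probe set always reads as mirror values around 0. A stand-in for brightness was taken from the numeric step that survives in the values. It placed 31.2% of the 48 genes in the brightest class (a value of 8 or above before centring), against 43.2% of all genes, and 31.2% in the dim class (below 4), against 22.6%. The 7 measured hepatocyte markers, among them ALB, AFP and APOA1, were all in the brightest class.

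KDM1A, which encodes LSD1, stood at -1.17 on the siRNA-2 array and -1.55 on the siRNA-1 array, against 1.23 and 1.17 on the control arrays. Knockdown minus control came to -2.56 ± 0.16 (SE, 2 arrays in each group), or 5.91-fold lower, at a limma adjusted p of 0.0854. Hybridization spike-ins, control transcripts added for the hybridization of each array, also split along the groups. They stood at 0.65 and 0.61 on the knockdown arrays against -0.69 and -0.61 on the controls. Poly-A spike-ins, another set of added transcripts, were closer together. They read 0.03 (siRNA-2) and 0.13 (siRNA-1), against -0.33 and -0.04 on the controls. For ACTB, signal at the 5' end minus that at the 3' end read -0.38 (siRNA-2) and -0.26 (siRNA-1), against 0.34 and 0.23 on the controls. The 7 hepatocyte markers likewise had both knockdown arrays above the controls (100%, against 23.6% of all genes), by a median of 0.47. Their array means were 0.39 with siRNA-2 and 0.14 with siRNA-1, against -0.11 and -0.23 on the controls. Of markers of other cell types, 1 of 5 fibroblast (20%), 0 of 3 leukocyte (0%) and 1 of 3 endothelial genes (33.3%) were higher on both knockdown arrays. These were COL1A1, by 1.88 (2.65 with siRNA-2, 1.10 with siRNA-1), and PECAM1, by 0.49. A further fibroblast gene, DCN, was lower on both, by -0.27 (1 of 5, 20%, against 25.4% of all genes). The part of each of these in the results below was not tested.

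No P450 gene passed the limma test of knockdown against control after Benjamini-Hochberg adjustment over all genes (0 of 48), where 0.00506% of all genes passed as higher and 0% as lower. At an unadjusted p under 0.05 there were 8 of 48 (16.7%), against 14.5% of all genes. In 15 of 48 genes (31.2%) both knockdown arrays lay above both control arrays, against 23.6% of all genes. In 5 genes (10.4%) both lay below, against 25.4%. Without the siRNA-1 array these counts were 23 and 18, without the siRNA-2 array 27 and 11, without control 1 20 and 9, and without control 2 19 and 9. With 1 array left out the groups lie apart more easily, and the share over all genes was not counted. Those counts therefore cannot be set against 23.6% and 25.4%. The median difference over the 48 genes was 0.07, against 0.00 over all genes. In bulk RNA, fewer cells of a type and less RNA per cell cannot be told apart.

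**Figure D1:**
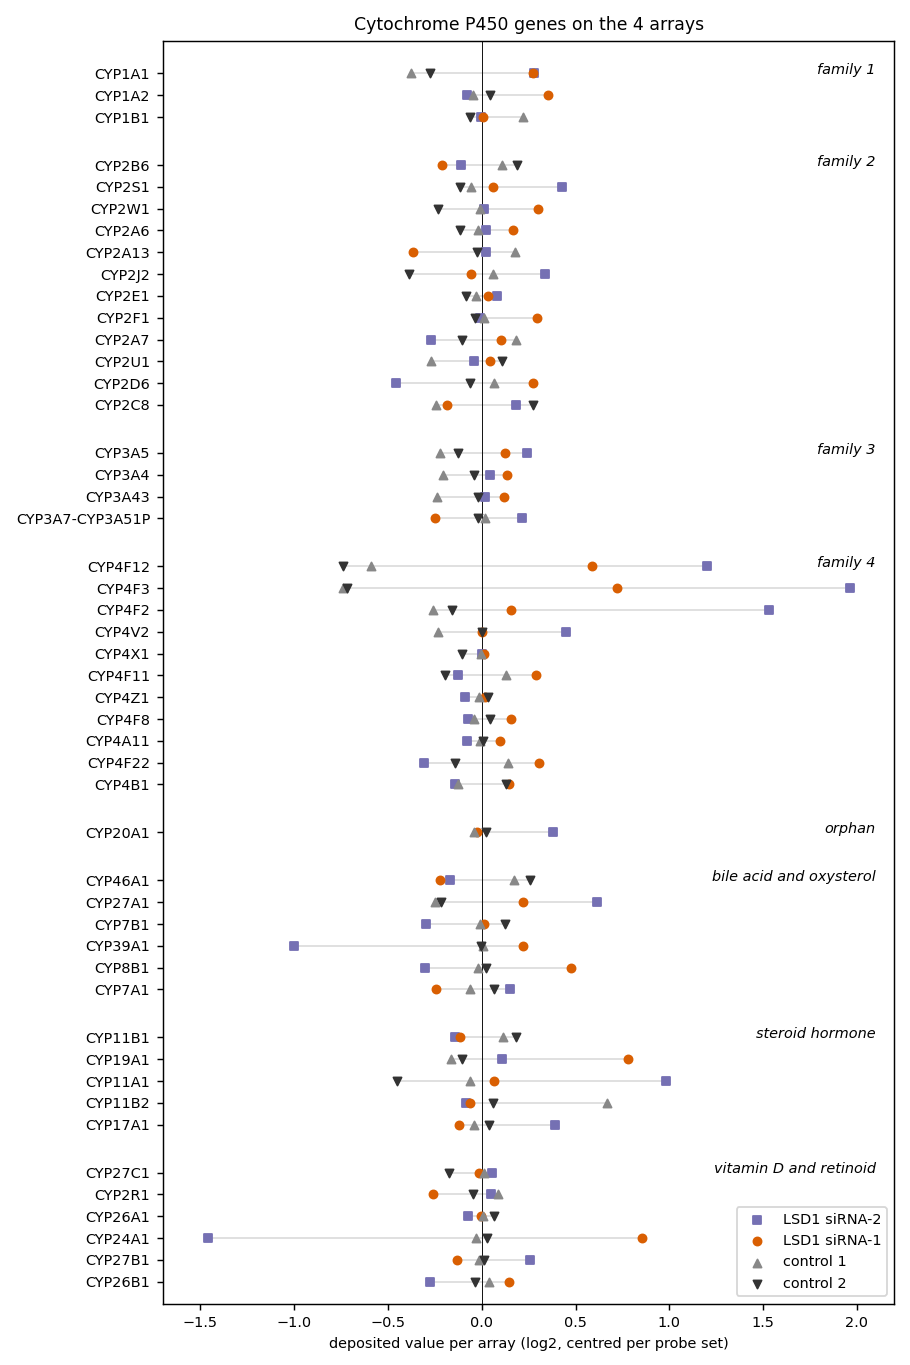
Deposited value of each of the 48 cytochrome P450 genes on each array (log2, centred per probe set), grouped by family or substrate and ordered by p within a group. Squares and circles are LSD1 siRNA-2 and siRNA-1, triangles are the controls. CYP4F3, CYP4F12, CYP4F2 and CYP24A1 span the widest range, and most other genes lie within 0.5 of 0 on every array.

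A separate fit with siRNA-2, siRNA-1 and control as groups took its spread from the control arrays alone, and so assumes that a lone knockdown array varies like them. With siRNA-2, 7 of 48 genes were called higher (13.2% of all genes were) and 2 lower (10% of all genes were). With siRNA-1 the call was 0 of 48, as for all genes (0%), although 18 members (37.5%) had an unadjusted p under 0.05, against 26.5% of all genes. With siRNA-2, 22 members had one, against 40.5% of all genes. The total of 9 calls with siRNA-2, 18.8% of the members, was not above the 23.2% of all genes. A difference of 2-fold or more with both siRNAs was found upward in 2 genes, CYP4F3 and CYP4F12 (0.647% of all genes), and downward in 0 (0.223%). What follows therefore describes single genes, beginning with those.

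Family 4 held the largest differences. The CYP4F genes lie in a stretch of chromosome 19 between CYP4F22 and CYP4F11, in the order CYP4F22, CYP4F8, CYP4F3, CYP4F12, CYP4F2 and CYP4F11 by the RefSeq table for GRCh38.p14, with olfactory receptor genes between CYP4F12 and CYP4F2. Of these 6 neighbouring genes, 3 were higher on both knockdown arrays (50.0%, against 23.6% of all genes) and 0 lower (25.4% of all genes were). The other 3, all read by dim probe sets, overlapped the controls. The RefSeq start regions of CYP4F3 and CYP4F2 are shown because both genes were higher, and that of CYP1A1 because the gene is a standard read-out of the aryl hydrocarbon receptor. Each window runs from 250 bases before the start to 50 after, 5' to 3' on the gene's strand. Capitals mark a match on either strand to TATAAA, to GCGTG (the core bound by the aryl hydrocarbon receptor), to AGGTCA (a nuclear receptor half-site) or to CCAAT.
CYP4F3, chr19:15641062-15641361, plus strand: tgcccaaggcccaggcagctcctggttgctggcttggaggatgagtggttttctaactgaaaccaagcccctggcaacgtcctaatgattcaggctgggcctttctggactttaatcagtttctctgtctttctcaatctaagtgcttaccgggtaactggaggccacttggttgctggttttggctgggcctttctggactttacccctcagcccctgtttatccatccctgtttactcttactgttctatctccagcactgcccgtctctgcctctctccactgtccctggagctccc
CYP4F2, chr19:15898025-15898324, minus strand: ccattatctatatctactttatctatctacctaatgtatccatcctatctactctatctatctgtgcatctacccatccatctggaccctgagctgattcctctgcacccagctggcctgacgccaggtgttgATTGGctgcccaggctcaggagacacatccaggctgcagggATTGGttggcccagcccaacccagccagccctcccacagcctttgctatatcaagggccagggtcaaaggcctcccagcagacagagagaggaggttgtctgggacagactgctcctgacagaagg
CYP1A1, chr15:74725479-74725778, minus strand: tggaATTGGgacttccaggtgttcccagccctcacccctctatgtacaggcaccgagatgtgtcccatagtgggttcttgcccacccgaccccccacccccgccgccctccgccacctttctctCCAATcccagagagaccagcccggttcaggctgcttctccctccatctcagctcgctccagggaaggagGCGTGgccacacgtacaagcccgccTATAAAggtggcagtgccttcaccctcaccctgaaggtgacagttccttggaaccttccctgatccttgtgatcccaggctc

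The CYP4F3 window held none of these letters, the CYP4F2 window held CCAAT 2 times in reverse, and the CYP1A1 window held TATAAA 32 bases and GCGTG 57 bases before the start. The CYP1A1 window also held CCAAT 126 bases before the start and, in reverse, 246 bases before it. The motifs do not overlap one another in these windows. Of the 48 genes 35 had a window. The TATA letters were present in 42.9% of these, against 11.5% of the 35116 windows in the RefSeq table. The aryl hydrocarbon receptor core was present in 31.4%, against 36.5%. The nuclear receptor half-site was present in 34.3%, against 13.8%. The CCAAT letters were present in 48.6%, against 34.6%. A member counted if any of its windows matched, whereas the 35116 windows were counted singly and without a filter by gene type. The shares are therefore not measured alike. These matches describe letters and not binding.

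CYP4F3, which inactivates the inflammatory lipid leukotriene B4 by hydroxylating its end, stood at 1.97 on the siRNA-2 array and 0.72 on the siRNA-1 array, against -0.74 and -0.72 on the controls. Both knockdown arrays stood far above the controls, which nearly coincided. The knockdown mean exceeded the control mean by 2.07 ± 0.43 (SE, 2 arrays in each group), which is 4.2-fold, with a limma adjusted p of 0.226. Against the controls it was 2.69 with siRNA-2, called by the fit per siRNA (adjusted p = 0.0156), and 1.45 with siRNA-1, not called (adjusted p = 0.0877). The size without 1 knockdown array thus ran from 1.45 to 2.69.

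CYP4F12, a hydroxylase of fatty acids and antihistamines, read 1.20 (siRNA-2) and 0.59 (siRNA-1), against -0.59 and -0.74 on the controls. The groups did not overlap, and the difference was 1.56 ± 0.23, a 2.95-fold higher level (limma adjusted p = 0.198, the smallest among the 48 genes). It rose with siRNA-2 by 1.86 (adjusted p = 0.0156), and read 1.25 with siRNA-1 (adjusted p = 0.0880). CYP4F12 was read by a single probe set whose suffix, _s_at, marks probes that can match more than 1 transcript, and the same holds for CYP4F2 with _x_at.

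CYP4F2, which hydroxylates arachidonic acid and vitamin K, read 1.53 (siRNA-2) and 0.16 (siRNA-1), against -0.26 and -0.16 on the controls. One array set its size: the difference was 1.05 ± 0.48 (limma adjusted p = 0.406), with 1.74 for siRNA-2 (adjusted p = 0.0156) and 0.37 for siRNA-1 (adjusted p = 0.138). The neighbours CYP4F11, CYP4F8 and CYP4F22 had differences of 0.11 ± 0.20, 0.04 ± 0.13 and -0.00 ± 0.25.

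**Figure D2:**
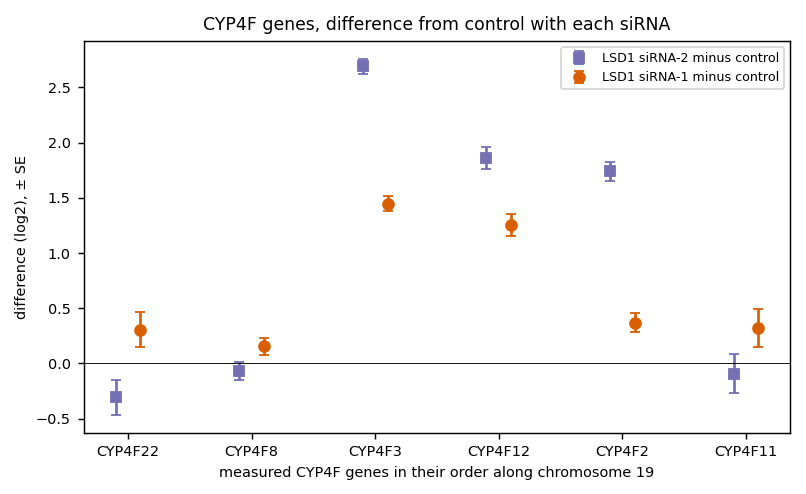
Difference from the control mean (log2, ± SE of the fit per siRNA) for the 6 measured CYP4F genes in chromosome order, with siRNA-2 (squares) left of siRNA-1 (circles). CYP4F3, CYP4F12 and CYP4F2 lie above 0 with both siRNAs, and CYP4F22, CYP4F8 and CYP4F11 lie on either side of 0.

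CYP4V2, a fatty acid hydroxylase whose mutation causes a retinal dystrophy, was read by 4 probe sets. The brightest read 0.45 (siRNA-2) and 0.00 (siRNA-1), against -0.23 and 0.00 on the controls, and so overlapped. A second gave a difference of 0.75 (0.88 and 0.17 on the knockdown arrays, -0.27 and -0.17 on the controls). Another, which was dim, gave 0.71 (0.33 and 0.35 against -0.33 and -0.40), and the last went the other way at -0.30. The remaining measured members of the family, CYP4A11, CYP4B1, CYP4X1 and CYP4Z1 with the 3 CYP4F genes above, had differences between -0.04 and 0.11.

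Family 1 holds the P450s induced by the aryl hydrocarbon receptor. CYP1A1, which oxidises polycyclic hydrocarbons, read 0.28 (siRNA-2) and 0.28 (siRNA-1), against -0.38 and -0.28 on the controls. Both siRNAs gave nearly the same size (0.61 and 0.60), and the difference of 0.60 ± 0.10 was a 1.52-fold higher level (limma adjusted p = 0.201). It was called with siRNA-2 (adjusted p = 0.0339) and not with siRNA-1 (adjusted p = 0.104), and the difference between the siRNAs was 0.00 ± 0.10. CYP1A2, the caffeine-clearing relative, gave 0.14 ± 0.18 and CYP1B1, read by 4 dim probe sets, -0.08 ± 0.14. The receptor gene AHR gave 0.10 ± 0.25.

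Family 2 is the largest family of drug-clearing P450s. With CYP2R1 placed among the vitamin P450s, it had 12 measured genes here. Of these, 4 lay above and 1 below the controls on both knockdown arrays (33.3% and 8.3%, against 23.6% and 25.4% of all genes). CYP2S1, a P450 of epithelia, read 0.43 (siRNA-2) and 0.06 (siRNA-1), against -0.06 and -0.11 on the controls. It was the 1 member of the family called with siRNA-2 (0.52, adjusted p = 0.0343, against 0.15 with siRNA-1). CYP2W1, known from fetal gut and colon tumours, read 0.01 and 0.30 against -0.01 and -0.23 on the controls.

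CYP2A6, the enzyme that clears nicotine, read 0.02 (siRNA-2) and 0.16 (siRNA-1), against -0.02 and -0.12 on the controls. Its direction depended on the probe set: the other 3 gave -0.09, -0.27 and -0.34, and the mean of all gave -0.13. CYP2B6, which clears bupropion and is a target of the receptor CAR, read -0.11 and -0.21 against 0.11 and 0.19 on the controls, a difference of -0.31 ± 0.11 from a dim probe set (limma adjusted p = 0.325). A second, also dim, gave 0.08.

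CYP2A13, a P450 of the airways, read 0.02 (siRNA-2) and -0.36 (siRNA-1), against 0.18 and -0.02 on the controls. CYP2J2, which makes epoxides of arachidonic acid, read 0.33 and -0.06 against 0.06 and -0.39. Both overlapped the controls. CYP2E1, the ethanol-oxidising member, was higher on both knockdown arrays by 0.11, and its other 3 probe sets gave 0.22, -0.11 and -0.37. CYP2E1, CYP2C8, CYP2F1, CYP2A7, CYP2U1 and CYP2D6 had differences between -0.12 and 0.16. CYP2D6, which clears many antidepressants and opioids, read -0.46 (siRNA-2) and 0.27 (siRNA-1), against 0.06 and -0.06 on the controls. It was not called with siRNA-2 (adjusted p = 0.0607), but was without dim genes and with arrays shifted to a median of 0. Its second probe set gave 0.02.

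Family 3 contains CYP3A4, the main drug-clearing enzyme of adult liver. CYP3A5, its close relative, read 0.24 (siRNA-2) and 0.13 (siRNA-1), against -0.22 and -0.13 on the controls, a difference of 0.36 ± 0.11 (limma adjusted p = 0.301). The other 3 CYP3A5 probe sets gave -0.02, -0.14 and -0.40, so the mean of all was -0.05. CYP3A4 read 0.04 and 0.13 against -0.21 and -0.04 on the controls, and CYP3A43, a minor form, 0.02 and 0.12 against -0.24 and -0.02.

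These 3 genes were each higher on both knockdown arrays. For CYP3A4 and CYP3A43 the nearest knockdown and control arrays lay closer together than the control arrays did. Without _x_at and _s_at probe sets CYP3A4 read -0.09, and CYP3A43, whose 4 probe sets are all _x_at, had no value. Those 4 gave differences above 0, from 0.17 to 0.31, and 1 of them overlapped the controls. The read-through CYP3A7-CYP3A51P gave -0.02 ± 0.19. The CYP3A transcripts are similar in sequence, and probes that match several cannot tell them apart.

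**Figure D3:**
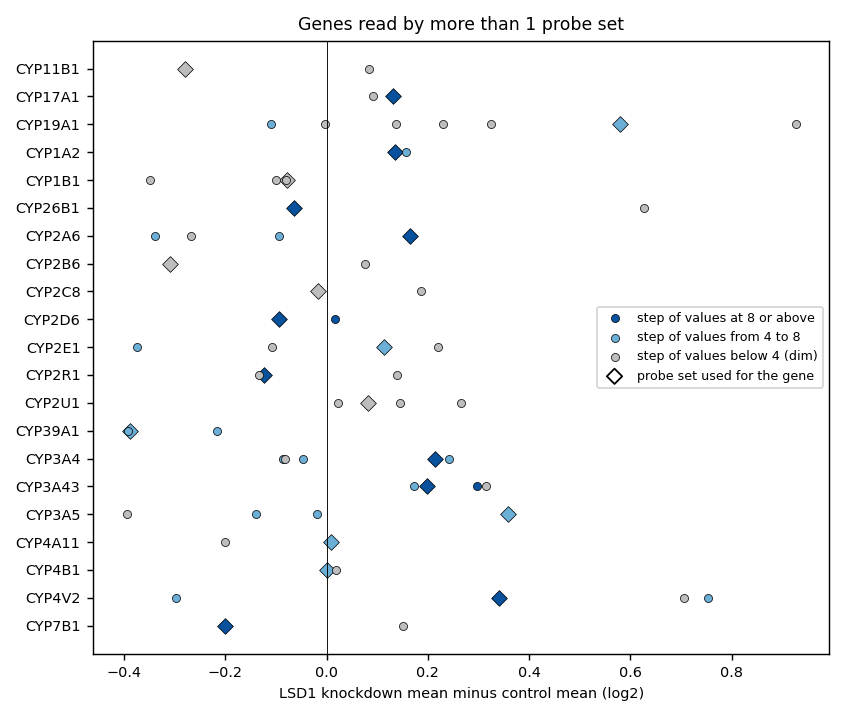
Difference between the knockdown mean and the control mean (log2) for every probe set of the 21 genes with more than 1. Diamonds are the probe sets used for the gene, and colour gives the brightness class. Probe sets of CYP2A6, CYP3A4, CYP3A5, CYP4V2 and CYP19A1 lie on both sides of 0, as do those of several other genes, CYP2E1 and CYP7B1 among them.

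Over the whole set, 27 probe sets had both knockdown arrays above the controls (29.0%, against 21.6% of all probe sets) and 12 had both below (12.9%, against 25.3%), with 0 of 93 past the test across all probe sets. The 15 genes called higher by direction had 22 further probe sets, of which 5 lay above and 3 below the controls on both knockdown arrays. The 5 genes lower by direction had 2 further probe sets, of which neither was lower on both.

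Bile acid and oxysterol P450s convert cholesterol to bile acids. CYP27A1, the mitochondrial enzyme that starts the alternative pathway of bile acid synthesis, read 0.61 (siRNA-2) and 0.22 (siRNA-1), against -0.25 and -0.22 on the controls. The groups were well apart, with a difference of 0.65 ± 0.17 and a 1.57-fold higher level (limma adjusted p = 0.263). It was called with siRNA-2 (0.85, adjusted p = 0.0194) and not with siRNA-1 (0.45, adjusted p = 0.108). CYP7A1, the rate-limiting enzyme of the classical pathway, was read by a dim probe set and gave -0.05 ± 0.17.

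CYP39A1, an oxysterol hydroxylase, read -1.0003 (siRNA-2) and 0.22 (siRNA-1), against 0.01 and -0.01 on the controls. Its level was far below the controls on 1 array and slightly above on the other, so the mean difference of -0.39 ± 0.43 described neither. It fell with siRNA-2 (adjusted p = 0.0166). The difference between siRNA-2 and siRNA-1 was -1.22 ± 0.08 (adjusted p = 0.0427). Of the other 2 probe sets, 1 read -0.59 and 0.16 against -0.10 and 0.10 on the controls, and 1 read -0.35 and -0.10 against 0.24 and 0.10.

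CYP8B1, which directs synthesis toward cholic acid, read -0.30 (siRNA-2) and 0.48 (siRNA-1), against -0.02 and 0.02 on the controls. Neither was called, but the difference between them was (-0.78 ± 0.08, adjusted p = 0.0474). That call was lost with robust moderation, without _x_at and _s_at probe sets, and with every probe set as its own row. CYP46A1, the cholesterol hydroxylase of neurons, was dim and read -0.17 and -0.22 against 0.17 and 0.26 on the controls (-0.41 ± 0.10, limma adjusted p = 0.258). CYP7B1, an oxysterol hydroxylase, gave -0.20 ± 0.15. Its dim second probe set gave a difference of 0.15, with both knockdown arrays above the controls.

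Steroid hormone P450s belong mainly to adrenal and gonad. CYP19A1, the aromatase that makes oestrogens, read 0.11 (siRNA-2) and 0.78 (siRNA-1), against -0.16 and -0.11 on the controls. It was further from the controls with siRNA-1 than with siRNA-2 (0.24 with siRNA-2, 0.91 with siRNA-1), a gap of -0.67 ± 0.08 for siRNA-2 over siRNA-1 that was not called (adjusted p = 0.0534). Of its 7 probe sets, 3 were higher on both knockdown arrays, and a dim one gave 0.93, with 0.25 and 0.88 on the knockdown arrays against -0.25 and -0.47 on the controls.

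CYP11A1, the enzyme that opens steroid synthesis by cleaving cholesterol's side chain, read 0.98 (siRNA-2) and 0.06 (siRNA-1), against -0.06 and -0.45 on the controls. The controls themselves differed by 0.39. It was called with siRNA-2 (1.24, adjusted p = 0.0436) and gave 0.32 with siRNA-1. With every probe set as its own row the siRNA-2 calls of CYP11A1 and CYP2S1 were lost. CYP11B2, the aldosterone synthase, read -0.09 and -0.06 against 0.67 and 0.06 on the controls, and without control 1 its difference of -0.44 was -0.14. CYP11B1, of cortisol synthesis, read -0.14 and -0.12 against 0.12 and 0.18 from a dim probe set, and CYP17A1 gave 0.13 ± 0.20.

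Among P450s of vitamins, CYP24A1 was the gene on which the siRNAs differed most. It breaks down active vitamin D and is a direct target of the vitamin D receptor. It read -1.46 (siRNA-2) and 0.85 (siRNA-1), against -0.03 and 0.03 on the controls. The control arrays nearly coincided and the knockdown arrays lay on opposite sides of them, by 2.75-fold and 1.81-fold. It fell with siRNA-2 (adjusted p = 0.0156) and was not called with siRNA-1 (adjusted p = 0.0907), and the difference of -2.31 ± 0.08 between siRNA-2 and siRNA-1 was called (adjusted p = 0.0427).

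The receptor gene VDR gave -0.25 with siRNA-2 and 0.23 with siRNA-1, and RXRA, its partner, 0.33 and -0.25. CYP27B1, which activates vitamin D, CYP2R1, which prepares it in the liver, and the retinoid enzymes CYP26A1, CYP26B1 and CYP27C1 had differences between -0.12 and 0.10. A dim second probe set of CYP26B1 read 0.73 and 0.15 against -0.15 and -0.22 on the controls. CYP20A1 gave 0.19 ± 0.17.

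**Figure D4:**
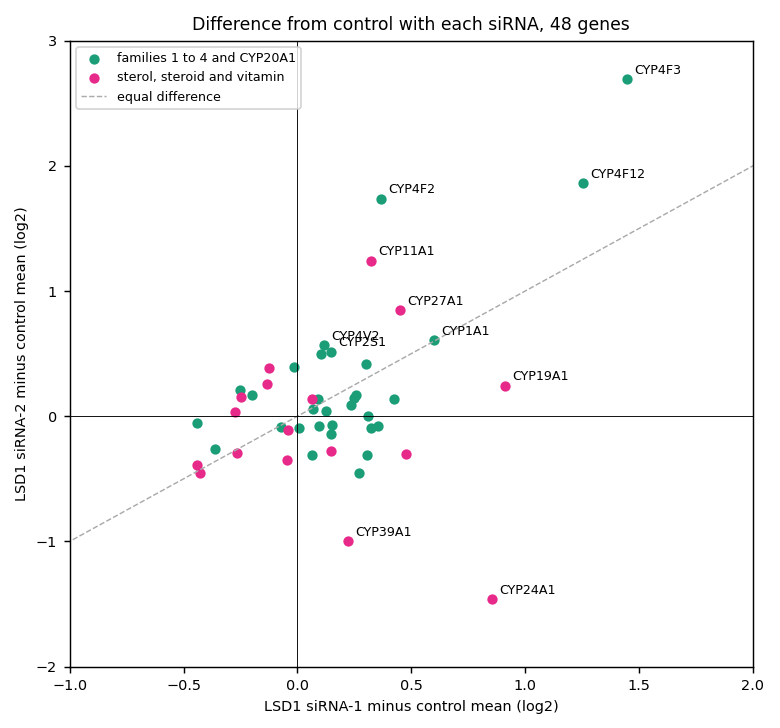
Difference from the control mean (log2) with siRNA-2 (vertical axis) against siRNA-1 (horizontal axis) for the 48 genes, with the dashed line marking equal differences. Both axes use the same control arrays. CYP4F3, CYP4F12 and CYP4F2 lie in the upper right, CYP1A1 on the line, and CYP24A1 at the lower right.

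In the fit per siRNA, 5 of 48 genes differed between siRNA-2 and siRNA-1 (6.57% of all genes did), and 20 had an unadjusted p under 0.05 (33.3% of all genes did). CYP4F3 and CYP4F2 were higher with siRNA-2 (3.84% of all genes were), and CYP24A1, CYP39A1 and CYP8B1 were lower (2.73% of all genes were). The calls depended on the setting: with robust moderation 4 passed, all but CYP8B1, with every probe set as its own row none passed (0), and with arrays shifted to a median of 0 there were 10. On opposite sides of the control mean by at least 0.3 each were CYP24A1, CYP8B1 and CYP4F22 (3 of 48, against 1.32% of all genes). Since siRNA-1 and siRNA-2 were each on 1 array, a difference between siRNAs and a difference between arrays cannot be told apart.

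Genes that serve the P450s were read from 4 lists. Redox partners pass electrons to the enzymes, and of 6 measured 2 lay above and 2 below the controls on both knockdown arrays (33.3% each, against 23.6% and 25.4% of all genes), with 0 past the test. CYB5A, cytochrome b5, gave 0.65 ± 0.10 (0.60 with siRNA-2, 0.69 with siRNA-1). POR, the reductase that supplies all microsomal P450s, read 0.13 and 0.33 against -0.13 and -0.21 on the controls, a difference of 0.40 ± 0.12. FDX1, the ferredoxin that supplies mitochondrial P450s such as CYP27A1 and CYP24A1, gave -0.54 ± 0.18, with -0.77 for siRNA-2 and -0.31 for siRNA-1.

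Haem enzymes supply the cofactor, and of 10 measured 5 lay above and 2 below the controls on both knockdown arrays (50% and 20%, against 23.6% and 25.4% of all genes, median 0.27, against 0.00 over all genes, 0 past the test). CPOX and ALAD, of haem synthesis, gave 0.63 ± 0.11 and 0.38 ± 0.10. HMOX1, which breaks haem down, gave 0.94 ± 0.11. ALAS1, the rate-limiting enzyme of synthesis in liver, gave -0.67 with siRNA-2 and 0.32 with siRNA-1.

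Of 16 measured transcriptional regulators 7 lay above and 2 below the controls on both knockdown arrays (43.8% and 12.5%, against 23.6% and 25.4% of all genes, median 0.08, 0 past the test). ONECUT1, a liver lineage factor read by a dim probe set, gave 0.54 ± 0.18 (0.75 with siRNA-2, 0.32 with siRNA-1). CEBPB, a liver factor of acute phase and fasting, gave 0.35 ± 0.13 (0.47 with siRNA-2, 0.22 with siRNA-1). AHRR, the repressor of the aryl hydrocarbon receptor, was dim and gave -0.43 ± 0.18 (-0.62 with siRNA-2, -0.24 with siRNA-1). NR0B2, the bile acid-induced repressor SHP, read -1.41 (siRNA-2) and -0.02 (siRNA-1), against 0.08 and 0.02 on the controls.

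Other drug metabolism enzymes had 19 measured members, with 11 above and 0 below both controls on each knockdown array (57.9% and 0%, against 23.6% and 25.4% of all genes), a median of 0.21 and 0 past the test. AOX1, an aldehyde oxidase, gave 0.86 ± 0.13. The epoxide hydrolases EPHX1, which opens drug epoxides, and EPHX2, which opens fatty acid epoxides, gave 0.73 ± 0.12 and 1.02 ± 0.23. SULT2A1, which sulfates bile acids and steroids, read 2.16 (siRNA-2) and 0.70 (siRNA-1), against -0.70 and -0.89 on the controls (2.23 ± 0.51, limma adjusted p = 0.246). All these lists were chosen with earlier results of these data known, so their counts are descriptions.

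**Figure D5:**
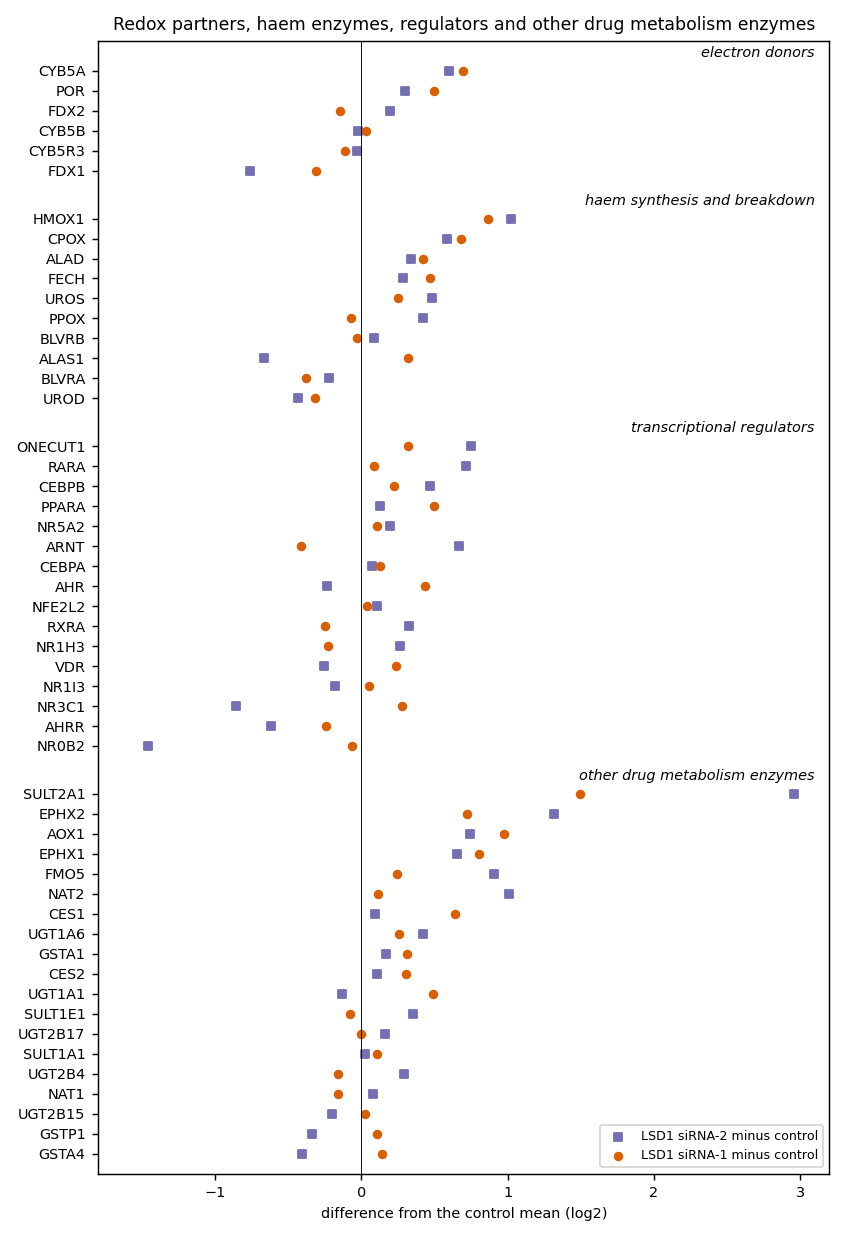
Difference from the control mean (log2) with siRNA-2 (squares) and siRNA-1 (circles) for 51 genes of 4 lists, ordered by mean difference within each list. SULT2A1, EPHX2, AOX1, EPHX1, CYB5A, CPOX and HMOX1 lie above 0 with both siRNAs, and NR0B2 lies below -1 with siRNA-2 alone.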

How the data were processed

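Per the submitters' processing notes the authors made the deposited log2 values with RMA. Sources used here give neither version nor log base, and base 2 is what RMA gives. The median of the 4 arrays was 0 in each of the 54675 probe sets (largest deviation 5.0e-07), so values had been centred. Array medians lay between -0.0152 and 0.0066. An array gives no depth, and the number of arrays limits precision.

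Probe sets were named by the platform annotation, with symbols updated through RefSeq gene identifiers. Of them 41091 had 1 symbol, 1801 several and 11721 none, beside 62 array controls. Brightness was read from the step of the differences between arrays (multiples within 0.15 of a step), so that some 1 in 8 rows is placed a class too bright by chance. Each gene took its brightest probe set, then one without a letter suffix, then the first identifier. Members and lists were chosen with earlier results of these data known. Values on every array are given for the 20 members with the smallest p or at least 2-fold with either siRNA, and 3 genes with the smallest p are named per further list. Further genes (AHR, VDR, RXRA, ALAS1, NR0B2, SULT2A1, and array values of CYP8B1 and CYP2D6) were named after their values were seen.

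The main comparison used limma 3.58.1 under R 4.3.3 (lmFit, eBayes, two-sided, Benjamini-Hochberg over 19775 genes, threshold 0.05). The code was tried on simulated arrays with large changes, equal on both knockdown arrays, which tests neither small nor unequal changes. A 3-group fit gave the calls per siRNA. Errors are standard errors of the main fit for knockdown over control, and of the 3-group fit for values per siRNA and between siRNAs. With 2 arrays a group, exact permutation reaches p = 0.33 at best. The same-numbered arrays share a number only (correlation of deviations 0.04), so no block was used. Alternatives changed moderation, probe set choice, dim genes, array shift, the block and single arrays.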

Additional observations from a re-analysis of the deposited data

Results flagged for a closer look

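In the fit per siRNA, 5 cytochrome P450 genes differed between siRNA-2 and siRNA-1 by the test of the difference itself. CYP24A1, which breaks down active vitamin D, gave -2.31 for siRNA-2 over siRNA-1 (limma adjusted p = 0.0427), with -1.46 for siRNA-2 and 0.85 for siRNA-1 against control. CYP4F2 gave 1.37 (adjusted p = 0.0427), with 1.74 and 0.37 against control. CYP4F3 gave 1.25 (adjusted p = 0.0427), with 2.69 and 1.45. CYP39A1 gave -1.22 (adjusted p = 0.0427), with -1.0003 and 0.22. CYP8B1 gave -0.78 (adjusted p = 0.0474), with -0.30 and 0.48. With every probe set as its own row, none of these differences between the siRNAs was called. Each siRNA was on 1 array, so siRNA and array cannot be told apart. Values on the siRNA-2 array spread more over all probe sets (SD 0.384, against 0.197 with siRNA-1 and 0.164 and 0.154 on the controls).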

How the results depend on the processing

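Of 22 P450 genes, 15 were followed through 11 settings and 7 through 10, and 17 kept their direction in the settings they had. CYP4F12, CYP4F2, CYP3A43 and KDM1A have no value without _x_at and _s_at probe sets, and the dim CYP46A1, CYP2B6, CYP2J2 and CYP11B1 have none without dim genes. The exceptions were CYP2A6 (-0.13) and CYP3A5 (-0.049) with the mean of a gene's probe sets, CYP3A4 (-0.086) without _x_at and _s_at probe sets, and CYP39A1 (0.22) and CYP24A1 (0.85) without the siRNA-2 array (-1.0003 and -1.46 without the siRNA-1 array). The cause was not tested for CYP2A6, CYP3A4 and CYP3A5. P450 genes past the test of knockdown against control were 0 in every setting with all 4 arrays. Without the siRNA-1 array that test is the one of siRNA-2 against control given above, and so is no separate result. Without the siRNA-2 array it is likewise the one of siRNA-1 against control. Genes of the whole array past it were 1, but 0 with robust moderation, with the mean of probe sets, with every probe set, without dim genes and with a replicate block, and from 0 to 4583 when 1 array was left out. The replicate block was run for knockdown against control only, so its bearing on the calls per siRNA was not tested. KDM1A ran from -2.75 without the siRNA-2 array to -2.37 without the siRNA-1 array.

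P450 genes higher on both knockdown arrays were 15, with 27 of 93 when every probe set was counted, and 19 to 27 when 1 array was left out. Those lower were 5, with 12 by probe set, 2 without dim genes and 9 to 18 when 1 array was left out. The counts with 1 array left out have no share over all genes beside them and cannot be set against the shares from all arrays. At least 2-fold higher with each siRNA was 1 without _x_at and _s_at probe sets. Calls with siRNA-1 turned from 0 to 112 genes (1 P450) with the mean of probe sets and 756 (4) with arrays shifted to a median of 0. Calls with siRNA-2 were 7460 of 54613 rows by probe set, among them 11 of the 93 P450 probe sets. With the shift they were 5602 of 19775 genes, among them 15 of the 48 P450 genes. Calls between the siRNAs were 2108 with the mean, 0 (0 P450) by probe set, 606 (3) without _x_at and _s_at, 2911 (9) without dim genes and 3196 (10) with the shift. The fit per siRNA has no test without 1 control. Brightness has only a stand-in, so how far dim genes limit the values is known by class alone.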
